A study of Mus musculus with 5 samples.

Results

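Enteroendocrine cells are rare hormone-producing cells of the gut lining that sense nutrients and release peptides from granules. I cells make cholecystokinin from Cck, L cells make glucagon-like peptides from Gcg and peptide YY from Pyy, and N cells make neurotensin from Nts. Cells that join Cck with the L cell hormones are known as N/L cells, and they respond to fat, bile acids and digested protein through receptors and transporters on their surface. Each Gcg transcript encodes a single precursor, and the enzyme encoded by Pcsk1 cuts it into GLP-1 and GLP-2 in the gut.

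N/L cells were chosen by the levels of marker genes in single cells, given here as UMIs (unique molecular identifiers, 1 per captured transcript) per 10000 UMIs of the cell. A cell needed a Cck level of at least 500 and a summed Gcg and Pyy level of at least 20. Its level had to stay under 10 for Tph1 (serotonin synthesis), under 500 for Gip and for Sst, and under 1500 for Ghrl. The sum of the goblet cell genes Zg16, Fcgbp, Clca1 and Spink4 also had to stay under 500. Of 9451 cells, 307 met these limits, or 3.25% (exact binomial 95% interval, 2.90 to 3.63%). Among the 961 cells with Cck and without Gip, Ghrl, Sst or goblet levels over these limits, they made up 31.9% (29.0 to 35.0%). The Cell Ranger 2 limit of 3892 UMIs was passed by 7129 of the 9451 cells (75.4%) and 266 of the 307 N/L cells (86.6%). It was not applied here, and the intervals do not cover that choice.

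The cells came from 1 droplet library of tdTomato+ epithelial cells, sorted from the small intestine of 4 pooled Neurog3-Cre; R26-LSL-tdTomato mice on the C57Bl/6J strain, untreated and 6 weeks old. In these mice the reporter stays on in every descendant of a cell that once expressed Neurog3, a gene of enteroendocrine progenitors, and 5200 of the cells were goblet cells by these genes, with a summed level of 500 or more. Bulk RNA was measured separately in 12 libraries of Cck-Cre; R26-LSL-tdTomato mice of the same strain, 6 to 8 weeks old, each library holding the tdTomato+ cells (CCK+) or the tdTomato- cells (CCK-) of the small intestine epithelium of 1 mouse. Libraries with the letters A, B and F came from mice fasted overnight, and those with C, D and E from mice given Ensure, a liquid diet, after the fast, with 1 CCK+ and 1 CCK- library for each letter. The bulk CCK+ libraries hold all cells with a history of Cck expression, not N/L cells alone.

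With 1 droplet library there were no replicates, so the single-cell values are a description with no test, and their 95% intervals (exact Poisson for levels, exact binomial for shares) cover counting error only. The N/L cells held a median of 5760 UMIs (2350 to 16396) and 1697 genes, and 1794246 UMIs together. The comparison group was the 431 I cells, defined by the same limits but with Gcg and Pyy summing to under 20. I cells were slightly deeper, with a median of 6272 UMIs. The 1743 EC cells (Tph1 at least 10, Cck under 500) were shallower, with a median of 2958 UMIs, and 358 (20.5%) passed the Cell Ranger 2 limit. The share of UMIs from mitochondrial genes had a median of 1.79% in N/L cells and 1.84% in I cells. The 715 top doublet scores included 13 N/L cells (4.23%) and 13 I cells (3.02%). Free RNA in the droplets was measured in 410487 barcodes of 1 to 100 UMIs, and goblet cells (median 6544.5 UMIs) served as a group of another cell type. No hormone limit was set for goblet cells. Single cells among them reached summed levels of 3850 for Cck, Sct and Casr and 4535 for Gip, Fabp5 and Rbp4. The top doublet scores included 495 goblet cells (9.52%), so their values are not a pure background.

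Gcg (ENSMUSG00000000394, chromosome 2, 62474530 to 62483650 on the minus strand of GRCm38) ranged from 0 to 898.1 over the N/L cells, with a median of 32.5. Its pooled level was 73.5 (72.2 to 74.8) in N/L cells, 3.63 in I cells, 2.95 in K cells (Gip at least 500) and 0.754 in goblet cells. Pyy (ENSMUSG00000017311, chromosome 11, 102106676 to 102107832, minus strand) ranged from 0 to 710.3, with a median of 24.04 and a pooled level of 55.6. Its pooled level was higher in the 46 D cells (Sst at least 500), at 136.3. It was 26.5 in EC cells, 11.3 in K cells, 1.27 in I cells and 3.43 in goblet cells. The Gcg and Pyy levels chose the N/L cells and support nothing further. The limit cut through a continuous range: the lowest member summed to 20.1 and the highest cell just outside to 19.8, with 92 N/L cells from 20 to 40 and 85 I cells from 10 to 20. At the Cck limit the lowest member stood at 555.1 and the nearest cell outside at 495.8. Cck itself had a pooled level of 1762 in N/L cells, where cells ranged from 555.1 to 3237, and of 1756 in I cells. Secretin, encoded by Sct, followed at 1476 in N/L cells and 1305 in I cells.

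Gcg and Pyy were often not high in the same cell. Gcg and Pyy each reached 20 in 101 N/L cells (32.9%), Gcg alone in 113 (36.8%), Pyy alone in 60 (19.5%) and neither in 33 (10.7%), whose sum still passed. Across the 307 cells the Spearman correlation of Gcg with Pyy was 0.00, and 0.03 after each cell was thinned to 2000 UMIs. These cells share a library and were cut on the sum of both genes.

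**Figure D1:**
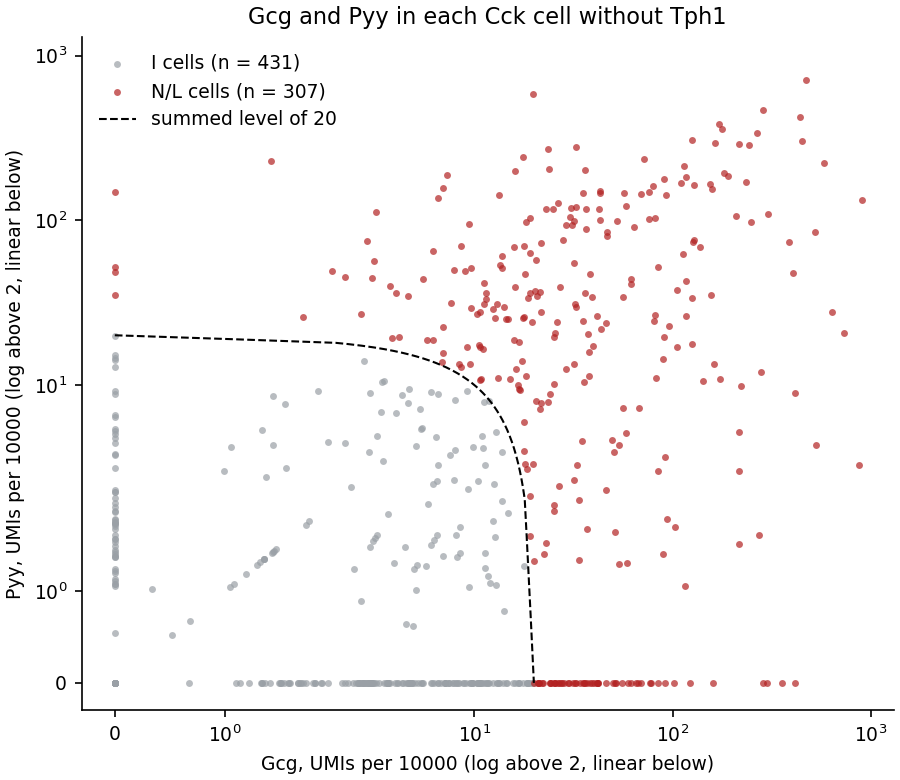
Each point is 1 cell, with Gcg on the x axis and Pyy on the y axis in UMIs per 10000 (log scale above 2), for 307 N/L cells and 431 I cells. The dashed line marks a sum of 20, which parted the groups, and the N/L cells spread along both axes and between them.

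The other markers of the type gave a mixed picture. Ffar1, a receptor for long-chain fatty acids, stood at 2.05 (1.84 to 2.27) in N/L cells and 1.19 (1.07 to 1.33) in I cells, a ratio of 1.72 (1.48 to 2.00). A Ffar1 UMI was seen in 67.8% of N/L cells (62.2 to 72.9%) and 48.0% of I cells (43.2 to 52.9%), against 3.62% of goblet cells. Thinned at random to 2000 UMIs per cell, which left out 1 shallower goblet cell, these shares were 35.5%, 22.5% and 1.25%. Etv1, a transcription factor, stood at 2.63 (2.40 to 2.88) in N/L cells and 2.06 (1.90 to 2.24) in I cells, a ratio of 1.28 (1.13 to 1.44). By summed Gcg and Pyy level, Etv1 was 2.02 in I cells under 5, 1.70 at 5 to 10 and 2.53 at 10 to 20. In N/L cells it was 1.72 (1.40 to 2.09) at 20 to 40, 2.65 at 40 to 80 and 3.33 at 80 or more.

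Nts did not mark the N/L cells apart from the I cells. Its pooled level was 60.4 (59.3 to 61.6) in N/L cells, 80.1 (79.1 to 81.2) in I cells and 76.4 in the 223 cells with both Cck and Tph1, against 3.003 in K cells, 3.27 in goblet cells and 6.98 in free RNA. A UMI of Nts was found in 73.6% of N/L cells and 75.2% of I cells (64.5% and 58.9% after thinning). The level ratio of N/L to I cells was 0.754 (0.737 to 0.772) and lay between 0.702 and 0.929 over the other limits tried. Insl5, a hormone of colonic L cells, had 0 UMIs in the 307 N/L cells, which allows a share of cells with a UMI of up to 0.977%. Of the 5 markers, Gcg and Pyy were used by the limits, and Nts was not higher than in I cells. The pooled levels of Ffar1 and Etv1 were higher than in I cells beyond counting error. For Etv1 this did not hold in the 92 N/L cells with a summed Gcg and Pyy level of 20 to 40.

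**Figure D2:**
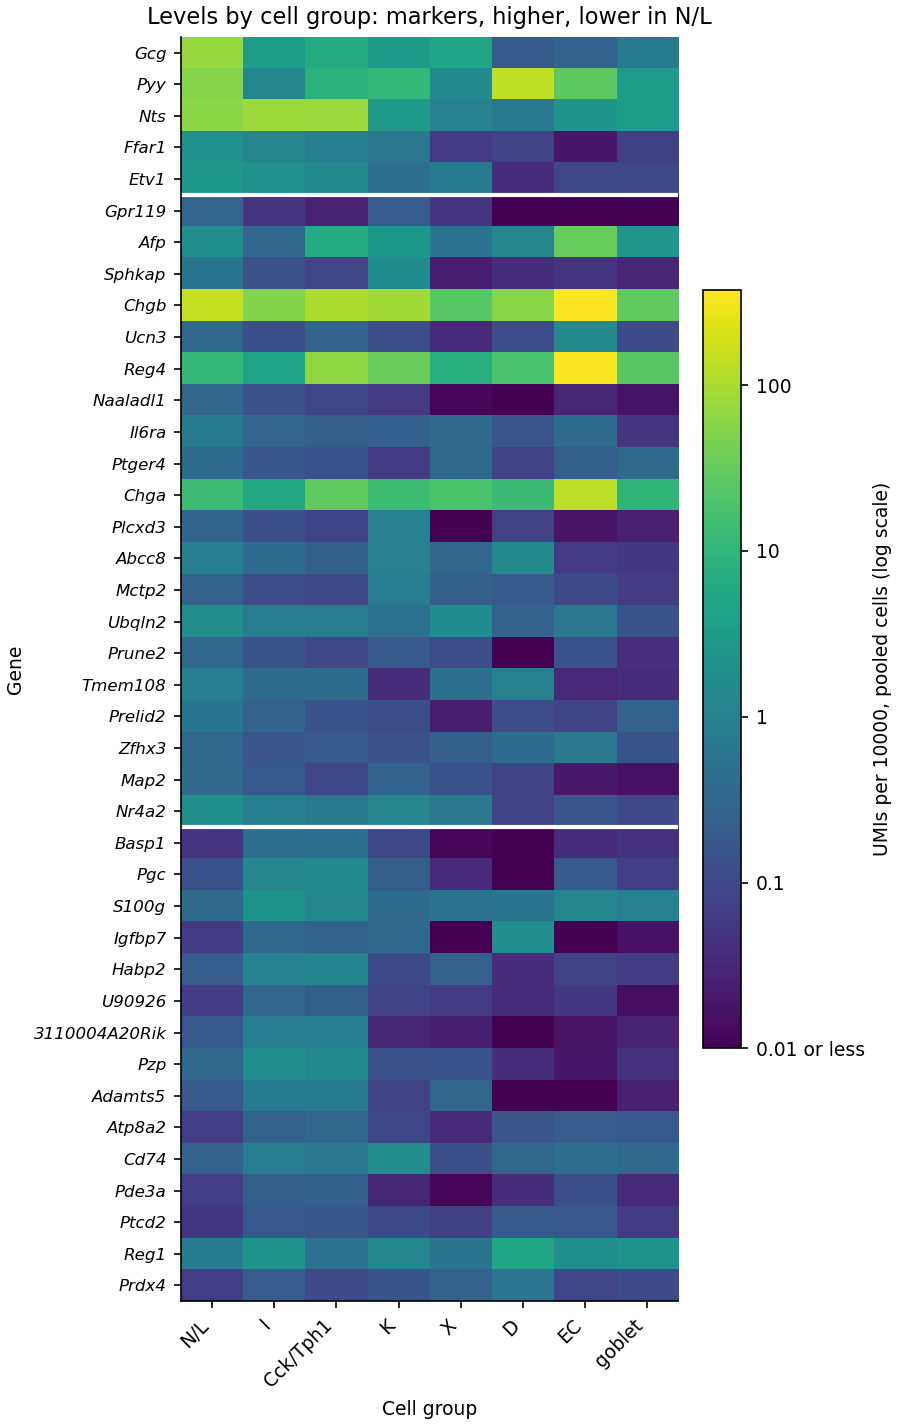
Color gives the pooled level of each gene (rows) in 8 cell groups (columns), in UMIs per 10000 on a log scale, with the 5 markers on top, then the 20 leading genes higher in N/L cells and the 15 lower ones. Lower genes such as Pzp are brighter in I and Cck/Tph1 cells than in N/L cells.

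Of 5137 genes with enough UMIs to be compared, 25 had a pooled level at least 2-fold higher in N/L than in I cells (0.487%) and 78 at least 2-fold lower (1.52%). Both counts also asked for a UMI in 10% of cells of the higher group. The median log2 ratio was -0.07. The genes of the limits were left out of this count. N/L and I cells thus shared most of their transcriptome at this depth.

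Gpr119, a receptor for fatty acid amides and monoacylglycerols whose activation raises cyclic AMP, came first in the ranking by ratio that named the higher genes, with 55 UMIs in N/L cells and 14 in I cells. It entered the comparison through its N/L UMIs. Its level was 0.307 (0.231 to 0.399) in N/L cells and 0.0498 (0.0272 to 0.0835) in I cells, a ratio of 6.16 (3.38 to 11.99). Gpr119 (ENSMUSG00000051209, chromosome X, 48667979 to 48674478, minus strand) was detected in 16.0% of N/L cells (12.05 to 20.5%), 3.02% of I cells (1.62 to 5.10%) and 0.519% of goblet cells. After thinning the shares were 6.84%, 1.39% and 0.135%. In K cells its level was 0.207, and the ratio of N/L to K cells, 1.48, had an interval from 0.882 to 2.58 that included 1.

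Abcc8, the sulfonylurea receptor subunit of the ATP-sensitive potassium channel, was detected in 42.0% of N/L cells (36.4 to 47.8%), 21.6% of I cells (17.8 to 25.8%) and 3.27% of goblet cells. The thinned shares were 16.9%, 7.89% and 1.25%, and the level ratio of N/L to I cells was 2.28 (1.79 to 2.92). K cells held Abcc8 at 0.995, close to the 0.925 of N/L cells. Kcnj11, the pore subunit of that channel, gave 1 UMI in all N/L cells, so the channel's other part was not measurable at this depth. Slc15a1, which carries dipeptides and tripeptides into cells, was at 0.752 in N/L cells and 0.359 in I cells, a ratio of 2.10 (1.61 to 2.74).

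Sphkap, an anchor protein for the cyclic AMP-dependent kinase, was detected in 26.7% of N/L cells (21.8 to 32.0%) and 8.35% of I cells (5.92 to 11.4%), and its level ratio was 4.34 (2.98 to 6.43). K cells exceeded N/L cells here, at 1.68 against 0.602. Il6ra, the alpha subunit of the interleukin 6 receptor, was detected in 34.9% of N/L cells (29.5 to 40.5%) and 17.6% of I cells (14.2 to 21.6%), with a level ratio of 2.38 (1.81 to 3.14) and a next highest group, EC cells (Tph1 at least 10 without Cck), at 0.398 against 0.752. Ucn3, the peptide urocortin 3, had a ratio of 2.58 (1.69 to 3.999). Ptger4, a prostaglandin E2 receptor, had a ratio of 2.33 (1.59 to 3.45), yet its 19.2% of N/L cells with a UMI lay under the 22.5% of goblet cells. The share thus did not set N/L cells apart from goblet cells, and the source of these UMIs was not tested.

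Chgb and Chga, granins of the secretory granule, were the abundant genes of the higher set. Chgb (ENSMUSG00000027350, chromosome 2, 132781278 to 132795079, plus strand) ranged from 11.1 to 573.6 over the N/L cells with a median of 134.3, and over the I cells from 2.16 to 418.5 with a median of 32.1. The ranges overlapped, and the pooled ratio was 2.80 (2.74 to 2.85). Its level in free RNA was 36.1, in goblet cells 29.1 and in EC cells 377. Chga stood at 13.5 in N/L cells and 5.79 in I cells, a ratio of 2.33 (2.19 to 2.49), but its free RNA level of 13.2 was close to that of the N/L cells.

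Nr4a2, an orphan nuclear receptor, was detected in 61.2% of N/L cells (55.5 to 66.7%), 34.3% of I cells (29.9 to 39.0%) and 5.15% of goblet cells, with a level ratio of 2.12 (1.80 to 2.503). The other leading higher genes were Naaladl1 (2.43), Plcxd3 (2.29), Mctp2 (2.24), Ubqln2 (2.21), Prune2 (2.19), Tmem108 (2.17), Prelid2 (2.16), Zfhx3 (2.13) and Map2 (2.12), each given as the level ratio of N/L to I cells. Of these 9 genes, Prune2 stayed at 2.004 or more under every limit and scaling tried, and the others came to between 1.77 and 1.98 in at least 1 of them.

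Afp and Reg4 entered the higher set through few cells. Afp, alpha-fetoprotein, had a ratio of 5.93 (4.69 to 7.55), but 34.6% of its N/L UMIs came from 1 cell, and the ratio was 3.89 without that cell, 3.18 without the cells of highest doublet scores and 0.868 with a limit of 40 on Gcg and Pyy. A UMI of Afp was found in 16.9% of N/L cells, 17.9% of I cells and 24.6% of goblet cells, so these shares did not set N/L cells apart. The source of these UMIs was not tested. Reg4, a secreted lectin, had a ratio of 2.53 (2.36 to 2.72), which was 2.02 without the cell that held 20.8% of its UMIs, 1.11 without the cells of highest doublet scores and 1.02 at the limit of 40. Its level was 11.3 in N/L cells, 36.8 in free RNA and 333.6 in EC cells.

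Among the lower genes, Basp1, a membrane-bound protein first known from neurons, was detected in 2.28% of N/L cells (0.921 to 4.64%) and 23.2% of I cells (19.3 to 27.5%), and its level was 9.85-fold (5.04 to 22.0) higher in I cells, with 4.83 to 17.3 over the other limits and scalings tried. Its share in N/L cells was near the 2.21% of goblet cells. Pgc, the precursor of the protease gastricsin, was detected in 5.86% of N/L cells (3.51 to 9.11%) and 29.5% of I cells (25.2 to 34.0%), a 9.13-fold (6.13 to 14.2) higher level in I cells. Habp2, a hyaluronan-binding serine protease, was detected in 9.45% of N/L cells (6.42 to 13.3%) and 45.01% of I cells (40.2 to 49.9%).

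Pzp, a protease inhibitor of the alpha-2-macroglobulin family (ENSMUSG00000030359, chromosome 6, 128483567 to 128526720, minus strand), was detected in 12.7% of N/L cells (9.19 to 16.9%), 54.5% of I cells (49.7 to 59.3%) and 2.13% of goblet cells. After thinning the shares were 6.19%, 26.7% and 0.731%. The level of Pzp in cells with both Cck and Tph1 was 1.499, near the 1.75 of I cells and above the 0.373 of N/L cells. Pgc (1.46), Habp2 (1.18) and Basp1 (0.468) likewise had levels in the Cck/Tph1 cells near those of I cells, at 1.32, 1.09 and 0.494. In these 4 genes the N/L cells lay below both other Cck groups. The Cck/Tph1 group had no limit on Gcg and Pyy, and 56 of its 223 cells (25.1%) were among the top doublet scores, which limits its use as a comparison.

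Onecut3, a homeodomain transcription factor (ENSMUSG00000045518, chromosome 10, 80494835 to 80517276, plus strand), was detected in 23.8% of N/L cells (19.1 to 28.9%), 66.8% of I cells (62.2 to 71.2%), 65.0% of Cck/Tph1 cells and 6.19% of goblet cells. Thinned, the first and second of these were 11.1% and 32.2%. Its level was 2.47-fold (2.07 to 2.95) higher in I cells. The remaining genes among the 15 lowest were S100g (5.99), Igfbp7 (5.92), U90926 (4.99), 3110004A20Rik (4.74), Adamts5 (4.03), Atp8a2 (3.93), Cd74 (3.32), Pde3a (3.30), Ptcd2 (3.19), Reg1 (3.14) and Prdx4 (3.08), each as the fold by which the level in I cells exceeded that in N/L cells. At a Gcg and Pyy limit of 10 this fold was 1.69 for Pde3a, 1.54 for Ptcd2 and 1.85 for Prdx4, and as a mean over cells it was 1.93 for Reg1, all under 2. With a Cck limit of 1000 it was 2.66 for S100g and 2.19 for Cd74. Reg1 is on the enterocyte marker list and Cd74 on the immune list, and in goblet cells they stood at 2.27 and 0.372.

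Genes with known roles in enteroendocrine cells were read in lists, beside the 0.487% of all compared genes that were 2-fold higher, the 1.52% that were lower and the median log2 ratio of -0.07. Of 9 granin and granule genes compared, 2 were at least 2-fold higher in N/L cells (Chga and Chgb) and 0 lower, with a median log2 ratio of 0.37. Scg2 was at 36.7 in N/L and 33.7 in I cells. Of 6 genes of prohormone processing compared, 0 passed 2-fold. Pcsk1, which cuts proglucagon, was at 2.89 and 3.09, and carboxypeptidase E (Cpe) at 15.3 and 14.8. Qpct, which forms pyroglutamate at peptide ends, was detected in 36.2% of N/L and 53.6% of I cells, with a level ratio of 0.700 (0.584 to 0.837).

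Of 18 endocrine transcription factors compared, 1 was higher (Nr4a2) and 1 lower (Onecut3), with a median log2 ratio of 0.15, against 0.487% higher, 1.52% lower and a median of -0.07 over all genes compared. Isl1 had a level ratio of 1.46 (1.26 to 1.70), Neurod1 of 1.26 (1.19 to 1.34) and Pax6 of 1.31 (1.07 to 1.602). Of 5 receptors for fatty acids and bile acids compared, 1 was higher (Gpr119) and 0 lower. Among the rest, Ffar3, a receptor for short-chain fatty acids, had a ratio of 1.59 (1.09 to 2.33), and Ffar2 one of 0.813 (0.684 to 0.964). Ffar4 had a UMI in 48.5% of N/L cells and 56.0% of goblet cells and is not read here. Gpbar1, the bile acid receptor, had 6 UMIs in N/L cells and was too sparse to compare.

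Of 3 glucose-sensing and channel genes compared, 1 was higher (Abcc8), and of 4 peptide and amino acid transporters, 1 was higher (Slc15a1), again beside 0.487% of all genes compared. Slc6a19, a transporter of neutral amino acids, had a ratio of 1.75 (1.38 to 2.22). Of 4 hormone and transmitter receptors, Ptger4 passed 2-fold, at a level (0.390) near that of goblet cells (0.376) and free RNA (0.404), and Sstr2, a somatostatin receptor, was lower, at 0.0836 in N/L cells and 0.231 in I cells. Of 5 other peptide hormones, Ucn3 was higher and gastrin (Gast) lower, with Gast detected in 13.0% of N/L cells (9.47 to 17.3%) and 25.8% of I cells (21.7 to 30.2%). No gene passed 2-fold among 15 of the exocytosis machinery, 5 voltage-gated channels, 5 genes of position along the intestine, 4 serotonin genes, 3 of cyclic AMP signaling and 1 vesicular transporter. The median log2 ratios of the first 2 of these lists were 0.02 and -0.20.

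No taste receptor or TRP channel had the 50 UMIs asked of a compared gene. Casr, the calcium-sensing receptor, gave 4 UMIs in N/L cells and 23 in I cells. Trpa1, an irritant-sensing channel, gave 40 UMIs in N/L cells and 19 in I cells, a ratio of 3.30 (1.87 to 6.03), with 11.1% of N/L cells holding a UMI against 7.35% of goblet cells.

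Markers of other cells were compared as summed levels. The 7 goblet markers summed to 352.1 in N/L cells (cells 154.9 to 1108), 384 in I cells and 2234 in free RNA, and the 6 Paneth markers to 32.5, 33.9 and 362.4. The 9 enterocyte markers summed to 27.7 in N/L and 34.3 in I cells, tuft markers to 0.240 and 0.409, crypt markers to 0.139 and 0.405, and immune markers to 0.307 and 0.935. In free RNA these sums were above both groups, at 73.4, 0.941, 0.593 and 1.14 in the same order. The tuft, crypt and immune sums were lower in N/L than in I cells, all under the free RNA level. The immune list, in which only Cd74 had enough UMIs to be compared, had a log2 ratio of -1.73. Of the defining markers of these types, 2 crypt markers were at 0 in N/L cells. Their part in the differences above was not tested.

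The summed Gcg and Pyy level was also read in 6 bins over the 738 N/L and I cells together. The limit used this sum and these genes were picked for a difference across it, so the difference between the lowest and highest bins was fixed by that choice, and the bins only describe where along the sum the levels lie. Gpr119 was detected in 1.45% of the 276 cells with a sum under 5 and in 22.0% of the 132 cells at 80 or more, with 7.14%, 4.71%, 10.9% and 12.05% in the bins between. Abcc8 went from 19.6% in the lowest bin to 46.2% in the highest, and Sphkap from 6.16% to 31.8%. Nr4a2 was found in 29.0% of cells under 5, 41.4% at 5 to 10, 63.0% at 20 to 40 and 59.8% at 80 or more. The pooled level of Chgb was 36.7 under 5, 89.9 at 10 to 20 and 148.4 at 20 to 40, and stayed at 148.3 and 149.9 above.

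The lower genes had the opposite course. Onecut3 was detected in 75.4%, 60%, 44.7%, 34.8%, 20.5% and 18.2% of cells from the lowest to the highest bin. Pzp was found in 59.4% of the lowest and 8.33% of the highest bin, Habp2 in 51.1% and 6.06%, and Basp1 in 26.8% and 1.52%. In these bins I cells just under the limit lay between the I cells under 5 and the N/L cells in these 4 genes. Median depth in the bins ranged from 5331 to 6440 UMIs. Cck stayed between 1661 and 1813 in all 6 bins.

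**Figure D3:**
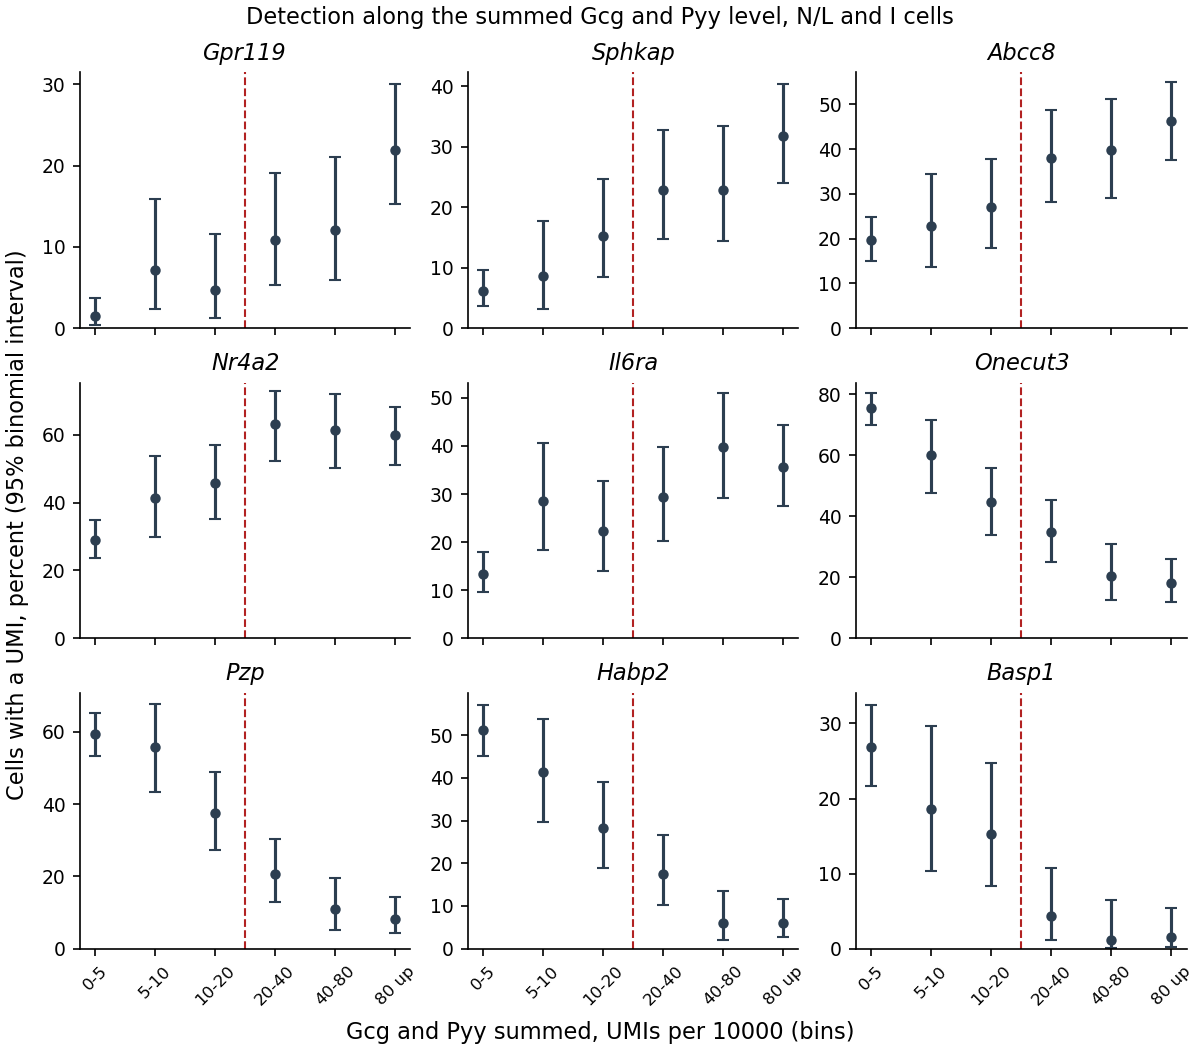
Points give the percent of cells with a UMI of each gene (y axis) in 6 bins of the summed Gcg and Pyy level in UMIs per 10000 (x axis), with exact binomial 95% intervals; the red dashed line marks the limit of 20. Onecut3 goes from 75.4% of cells in the lowest bin to 18.2% in the highest, and Gpr119 from 1.45% to 22.0%.

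Among the N/L cells themselves, secretin was lower in the cells with the most Gcg. Sct had a pooled level of 1793 in the 93 cells with Gcg under 20, 1585 in 105 cells at 20 to 50, 1449 in 47 cells at 50 to 100, 983.5 in 31 cells at 100 to 200 and 541.8 (530.6 to 553.2) in 31 cells at 200 or more. An Sct level under 500 was found in 2, 2, 5, 5 and 16 of these cells. Gcg took at most 8.98% of the UMIs of any N/L cell. Depth was similar in the 5 bins, with medians from 5386 to 5847 UMIs, and the bins held 6, 5, 0, 1 and 1 of the cells with the highest doublet scores.

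Nts was also low where Gcg was high. Its pooled level was 87.6 in cells with Gcg under 20 and 13.9 (12.1 to 15.8) at 200 or more, and 15 of 93 and 17 of 31 of these cells had no Nts UMI. Over the same bins Cck was 1620, 1853, 1828, 1859 and 1697. Etv1 was 1.91 (1.57 to 2.31) in the lowest and 4.504 (3.54 to 5.65) in the highest bin. Ghrl was 206 and 369.9.

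Across the 307 cells the Spearman correlation of Gcg was -0.50 with Sct and -0.34 with Nts, and -0.48 and -0.30 after thinning. Nts and Sct had a correlation of 0.41 in N/L cells and 0.38 in I cells. Chgb and Ghrl had one of -0.47. All points share a library, and the levels within a cell share its UMI total.

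**Figure D4:**
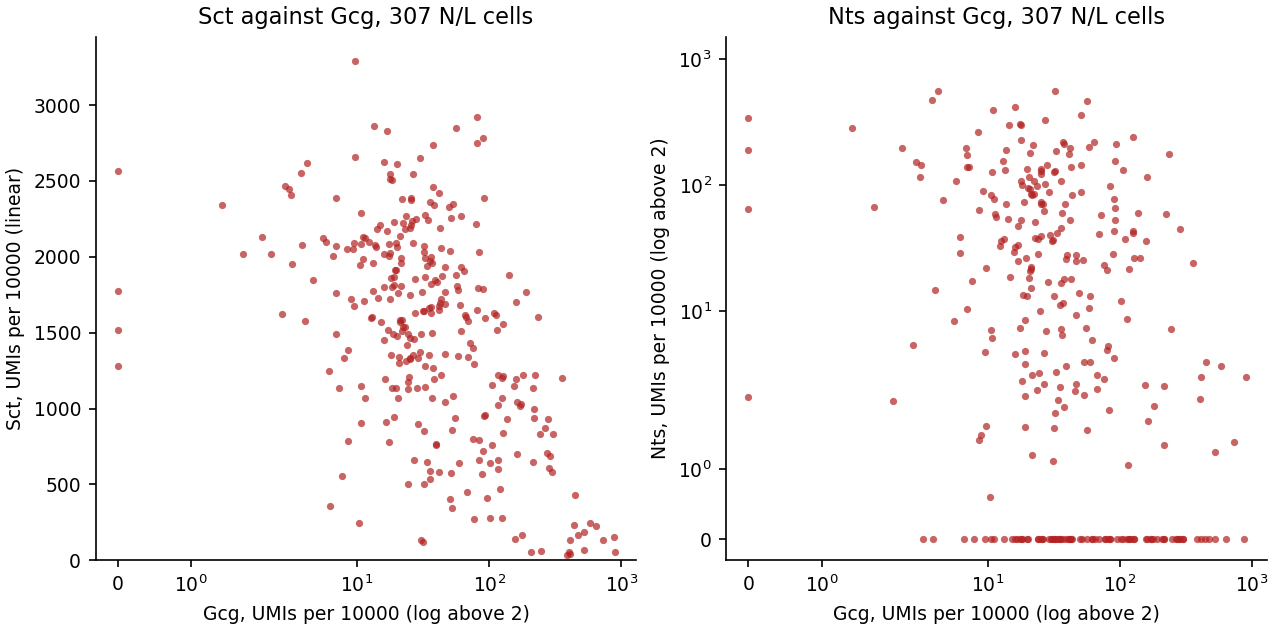
Each point is 1 of the 307 N/L cells, with Gcg on the x axis (log scale above 2) and Sct (left, linear) or Nts (right, log scale above 2) on the y axis, all in UMIs per 10000. Of the 31 cells with Gcg at 200 or more, 16 have Sct under 500 and 17 have no Nts.

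The N/L cells were also divided by Pyy. The 161 cells with Pyy at 20 or more and the 146 cells under 20 differed at least 2-fold in 7 genes that were higher and 9 that were lower with Pyy. How many genes were compared in this division was not counted, so no share can be set beside these counts. Onecut3 was at 0.431 with Pyy and 1.41 without, and was detected in 11.2% and 37.7% of the cells. Rgs2, a regulator of G protein signaling, was at 2.39 and 6.23, and Cdkn1c, a cell cycle inhibitor, at 1.10 and 2.65. Neto1, an accessory protein of glutamate receptors, was among the higher genes (0.572 and 0.242), as was Ptger4 (0.550 and 0.219), whose goblet cell level was 0.376. These 2 rest on few UMIs, 53 and 21 for Neto1 and 51 and 19 for Ptger4. In the 60 cells with Pyy alone Nts was at 85.8 and Sct at 1823, while the 113 cells with Gcg alone had 48.2 and 1319. Sst was at 6.64 and 2.23 in these cells, and 6 and 3 of them were among the top doublet scores. The same scores included 10 of the 161 cells with Pyy at 20 or more and 3 of the 146 under 20. The part of doublets in these differences was not tested. Rgs2, Cdkn1c and Neto1 are named here after their values were seen.

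The bulk libraries, which the limits did not use, asked whether genes of N/L cells were higher in sorted CCK+ than CCK- cells and whether they differed after refeeding. Values are normalized counts as deposited, and tests are limma on log2(normalized count + 1) over 22042 genes with Benjamini-Hochberg adjustment. Over all genes 4324 were called higher in CCK+ (19.6%) and 3107 lower (14.1%). Fewer cells of a type and less RNA per cell cannot be told apart in such libraries, and Tph1, Gip and Sst were also higher in CCK+ (log2 differences 6.18, 8.84 and 6.25), so no value can be assigned to N/L cells.

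Gcg had 7896, 4945 and 11229 normalized counts in the fasted CCK+ libraries A, B and F and 10354, 10184 and 6316 in the refed CCK+ libraries C, D and E. In the CCK- libraries it had 18.9, 5.58 and 26.2, and 20.4, 35.0 and 10.9. The sorted groups did not overlap, with a log2 difference of 8.83 (SE 0.34, limma adjusted p = 2.658e-10). Pyy had 713.3, 378.5 and 705.4 in fasted and 854.9, 1606 and 1062 in refed CCK+ cells, and at most 8.78 in any CCK- library, a log2 difference of 6.84 (SE 0.26, limma adjusted p = 1.716e-10). All 5 markers, Gcg, Pyy, Nts, Ffar1 and Etv1, were called higher in CCK+, beside 19.6% of all genes. Their median log2 difference was 8.12 against 0.09 over all genes.

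Of the 20 leading higher genes of N/L cells, 18 were called higher in CCK+ cells, 1 lower and 1 in neither direction. Over all genes 19.6% were called higher and 14.1% lower. The median log2 difference of the 20 genes was 5.04. The granin list had 9 of 9 genes called higher, the endocrine transcription factors 24 of 26, and the peptide and amino acid transporters 0 of 8. N/L and I cells both have Cck, so these counts do not bear on how the 2 groups differ. Gpr119 had 73.9, 46.1 and 58.4 normalized counts in fasted and 49.4, 58.4 and 40.8 in refed CCK+ libraries. It was listed at 1.11 in 1 CCK- library and at 0 in the other 5. Sphkap (log2 difference 8.01), Abcc8 (5.67) and Il6ra (4.66) were likewise higher in all CCK+ libraries. Naaladl1 was lower in CCK+ (-0.52, SE 0.14, limma adjusted p = 0.009447), and Ptger4 was not called (0.05, SE 0.19, limma adjusted p = 0.8708).

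Nr4a2 was called higher in CCK+ (2.26, SE 0.71, limma adjusted p = 0.02259), but its libraries overlapped and the call was lost in 10 of 19 alternatives, over which adjusted p ran from 0.001 to 0.4091. Slc15a1 was lower in CCK+ than CCK- cells (-1.03, limma adjusted p = 5.415e-05). Of the 15 leading lower genes 13 were in the table. Among these, 6 were called higher in CCK+ and 2 lower (Reg1 and S100g), beside 19.6% and 14.1% of all genes. Their median log2 difference was 0.78. Pzp (6.79), Pgc (6.03) and Habp2 (3.24) were among those higher in CCK+, as was Onecut3 (5.12).

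After refeeding, 289 genes were called higher in CCK+ cells (1.31%) and 272 lower (1.23%). Of the 5 markers, 0 were called by limma, with 2 at an unadjusted p under 0.05. The share of all genes under that unadjusted limit was not counted, so such counts, here and below, have no baseline. Nts had 2605, 2261 and 2163 normalized counts in fasted and 6479, 7116 and 3796 in refed CCK+ libraries. The log2 difference of 1.26 (SE 0.37) had a limma adjusted p of 0.09454, so Nts was not called, with 0.03114 to 0.3625 over 17 alternatives. Pyy differed by 0.98 (SE 0.36, limma adjusted p = 0.1829) and was not called either. The log2 differences of Gcg (0.20, SE 0.48), Ffar1 (0.04, SE 0.43) and Etv1 (0.42, SE 0.55) were smaller than their errors, with limma adjusted p of at least 0.7582.

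Of the 20 leading genes, 2 were called higher after refeeding and 0 lower, beside 1.31% and 1.23% of all genes. At an unadjusted p under 0.05, 5 were higher and 1 lower, with no share of all genes counted at that limit. Afp had 4410, 1422 and 4610 normalized counts in fasted and 8708, 9168 and 9860 in refed CCK+ libraries, a log2 difference of 1.59 (SE 0.34, limma adjusted p = 0.02276). Reg4 had 15260, 6000 and 12594 and then 21108, 27519 and 30226, a log2 difference of 1.31 (SE 0.29, limma adjusted p = 0.02854). In the droplet library Afp and Reg4 had higher levels in EC cells (32.8 and 333.6) than in N/L cells (1.92 and 11.3). The fasted CCK+ library B, the lowest for both, stood apart with 17183 genes over 0 against 18123 to 18855 in the other CCK+ libraries. Without it Afp differed by 1.03 (limma adjusted p = 0.0287) and Reg4 by 0.91 (0.1068).

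The Afp call was lost without any 1 refed CCK+ library, or without CCK- library A, B, C or D, and the Reg4 call without any 1 library other than CCK+ library A. With only CCK+ libraries in the fit the limma adjusted p values were 0.2573 and 0.2585.

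Among the pathway genes, 3 of 8 peptide and amino acid transporters were called lower after refeeding and 0 higher, against 1.23% and 1.31% of all genes. In the CCK- libraries 1 of the same 8 genes was called lower and 4 were lower at an unadjusted p under 0.05, with a median log2 difference of -0.18. Slc15a1 had 4698, 8010 and 6620 normalized counts in fasted and 2825, 2154 and 2028 in refed CCK+ libraries, a log2 difference of -1.45 (SE 0.20, limma adjusted p = 0.00363). Slc6a19 (-1.48, limma adjusted p = 0.009697) and Slc7a8 (-0.98, limma adjusted p = 0.01674) were the others. Library B, which stood apart above, was the highest of the fasted CCK+ libraries for Slc15a1. Alternative fits were kept only for the markers and leading genes, so these calls were not tried without it. Slc15a1 had 9425, 12005 and 11725 in fasted and 5579, 5654 and 5346 in refed CCK- libraries, a log2 difference of -0.99 (SE 0.20, limma adjusted p = 0.0287), and within each state its level was higher in CCK- cells.

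The sodium-glucose transporter Slc5a1 was also lower after refeeding (-1.02, limma adjusted p = 0.03912), and the glucose transporter Slc2a1 was higher (1.01, limma adjusted p = 0.03265). Among 9 receptors for fatty acids and bile acids, only the fatty acid carrier Cd36 of that list was called (-1.16, limma adjusted p = 0.03487), and Gpr119 and Ffar1 were not. In each of the granin, prohormone processing and endocrine transcription factor lists 0 genes were called in either direction by limma. At an unadjusted p under 0.05, 3 of 9, 2 of 8 and 4 of 26 were higher. Without the share of all genes at that limit, these counts cannot be read as an excess. The insulin receptor Insr (-0.96, limma adjusted p = 0.01914) and the channel Trpm4 (-0.89, limma adjusted p = 0.02241) were lower. The calls of Slc5a1, Slc2a1, Cd36, Insr and Trpm4 were likewise not tried in alternative fits. For the 38 markers and leading genes measured in bulk, the effect of refeeding was also tested for a difference between CCK+ and CCK- cells, and 0 passed. The pathway genes called after refeeding were not among these 38.

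**Figure D5:**
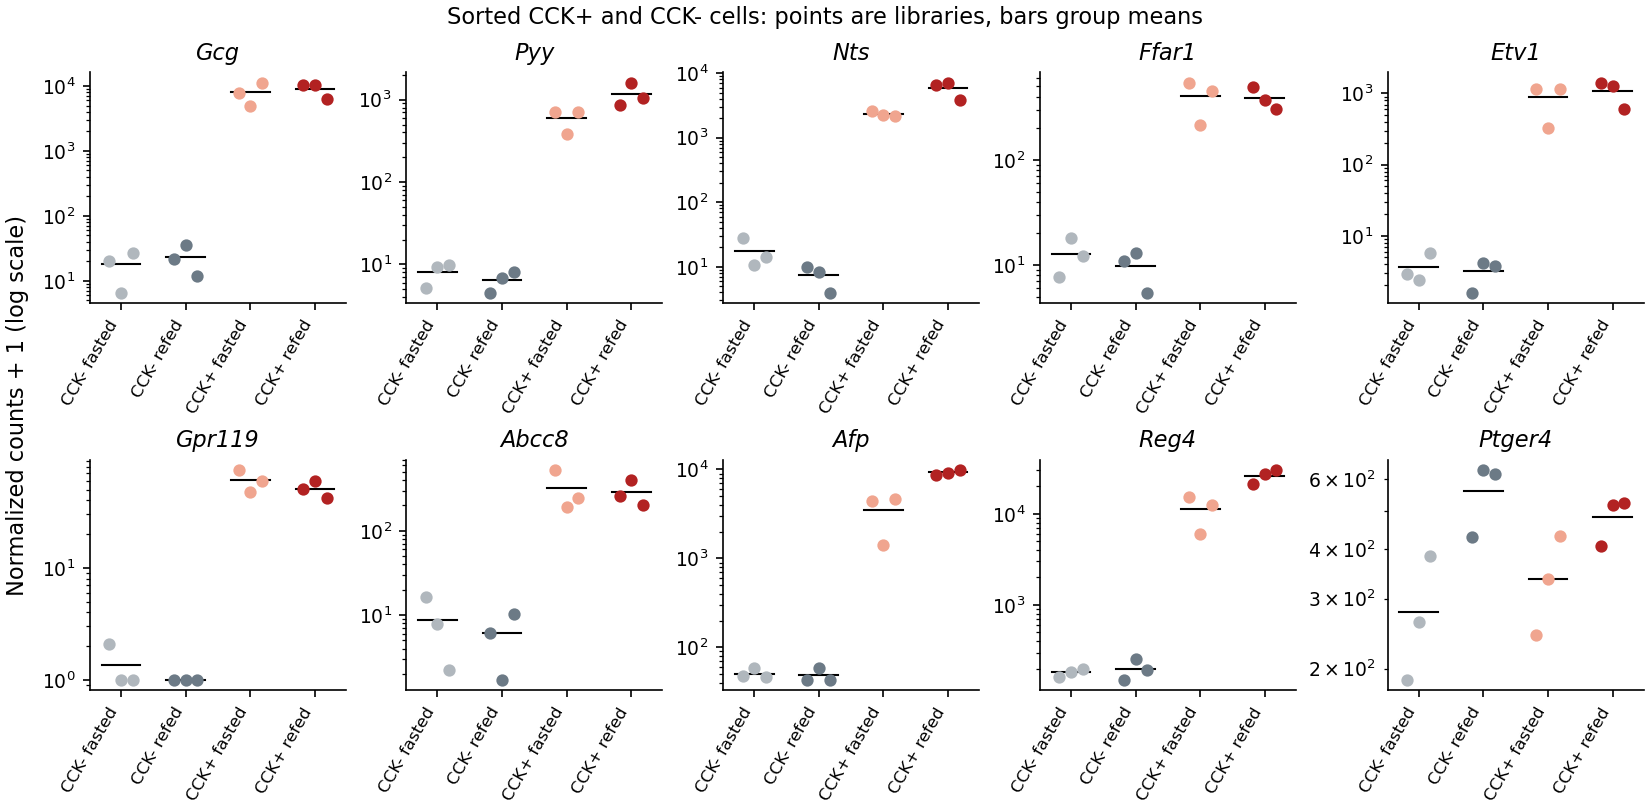
Points are the 3 libraries of each bulk group (x axis) and horizontal lines their means, as normalized counts plus 1 on a log scale (y axis). Gcg lies between 4945 and 11229 in the CCK+ libraries and at or under 35.0 in the CCK- libraries, while the Ptger4 libraries of both sorts overlap.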

How the data were processed

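The authors aligned the droplet reads to mm10 with Cell Ranger 2.0.1, and the deposited values are UMI counts per gene and barcode with no normalization. For the bulk libraries, the authors trimmed reads with Trim Galore 0.6.7, quantified transcripts with Salmon 1.6.0 and summed them per gene, and the deposited signal values are counts divided by DESeq2 normalization factors. Those values are not whole numbers, their library sums ran from 7061155 to 11371114, and their depth in reads is unknown.

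Barcodes with more than 1000 genes and under 10% mitochondrial UMIs were kept (Python 3.11.15, scanpy 1.11.5, scipy 1.17.1). Levels were UMIs pooled over the cells of a group, per 10000. The doublet caller marked only 4 cells at its own threshold of 0.533, so doublets were kept and the highest scores counted. Genes were compared with at least 50 UMIs in either group, and a count under 3 was set to 3. To be counted as 2-fold, a gene also needed a UMI in 10% of cells of the higher group. The 5137 genes compared were not held to that share. A gene could enter through the group where it was higher alone, as Basp1, Pgc and Habp2 did through I cells. Named genes were the genes of the limits, the markers, the 20 highest and 15 lowest ratios, and up to 6 genes of each list plus members past 2-fold. Members, lists and tests were chosen with earlier results of these data known. Gene positions came from GRCm38.

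Bulk values were tested with limma 3.58.1 (R 4.3.3) with 1 mean per group, a mean-variance trend and 8 residual degrees of freedom, called under an adjusted p of 0.05. Titles name all 4 bulk groups CCK+, and the cell type labels were used. Whether a CCK+ and a CCK- library of 1 letter came from the same mouse is not given in the sources used here. Both scripts were tested on simulated data.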

Additional observations from a re-analysis of the deposited data

How the results depend on the processing

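N/L cells numbered 307, and 392 or 215 with a Gcg and Pyy limit of 10 or 40, 222 or 343 with more than 1500 or 500 genes per cell, and 266 over the Cell Ranger 2 UMI limit. Genes 2-fold higher numbered 25, and 43 or 6 with a minimum of 20 or 200 UMIs. Genes 2-fold lower numbered 78, and 24 with a minimum of 200 UMIs. An alternative chosen after seeing the data, leaving out for each gene the cell with most of its UMIs, gave 25 and 77. Of the 20 leading genes, 19 were called in CCK+ against CCK- cells in the fit without pairing and 19 with the letter of a library as a replicate block, and 18 to 19 without any 1 library. After subtraction of group means, libraries of 1 letter had correlations of 0.0773 to 0.124 over genes (6 pairs) and other pairs of the same state -0.0826 to -0.0184 (12 pairs), so each library correlated best with its own letter, which is a hint from the data and not a stated design. After refeeding 2 were called, and 0 without a trend or with only CCK+ libraries in the fit, and 0 to 3 without any 1 library. The other alternatives kept each of these counts within 1.5 times. Single droplet counts of 9 to 70 UMIs, as for Basp1 and Ptger4, limit the precision of those ratios.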
